A study of Equus caballus with 37 samples.

Results

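A conditioning period of training and the close of the racing year were compared in blood RNA of Arabian horses. T1 was sampled in March after the slow canter phase, before racing began. T3 was sampled in October, when racing had finished. The 2 periods were selected by the first letters of the library titles, which gave 12 libraries of T1 and 8 of T3, 20 of the 37 libraries of the series. All 20 came from horses labelled as 3 years old, 5 mares and 7 stallions in T1 and 4 mares and 4 stallions in T3. The other 17 libraries, used here as levels for reference, were 11 of T2 (May, after intense gallops) and 6 of T0 (untrained horses, October); T2 horses were 3 years old, and in T0 5 were 2.5 and 1 was 3 years old. The blood was drawn from the jugular vein, and the horses in training were sampled more than once, but the labels name no horse, so the libraries were treated as separate samples and the p-values measure the spread between libraries. Month, training history and exercise before sampling changed together from T1 to T3 and cannot be told apart.

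Whole blood RNA comes mainly from leukocytes, with a part from platelets, and exercise is known to change both the number of circulating leukocytes and the genes they use. Myeloid cells, T and B lymphocytes and natural killer cells differ in granule, receptor and antigen presentation genes, so that a level in blood depends on which cells are present as well as on how much RNA each holds. In these data, fewer cells of a type and less RNA per cell cannot be told apart. Cell types were not checked by markers here, because genes carry Ensembl identifiers here and 0 of 306 marker and pathway symbols could be paired with one; names are given for the 74 identifiers that the study itself pairs with a name.

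The libraries of T1 did not form one group. In T1, 5 of the 12 (replicates 1, 2, 3, 4 and 11) had TMM factors, which scale a library for the share of its counts that a few genes take up, between 0.448 and 0.775, while the other 7 had factors between 1.02 and 1.26 and the T3 libraries between 1.16 and 1.37. In these 5 libraries the 100 most abundant genes held 40.1 to 51.6% of the counts, against 27.9 to 35.2% in the other 7 and 22.6 to 25.8% in T3. On the first principal component of log2 CPM, which held 65.3% of the variance over 11471 genes, the 5 libraries lay between -193 and -67.98, the other 7 between -19.6 and 27.2 and the T3 libraries between 47.3 and 86.3. Mares gave 4 of the 5, which left 1 mare and 6 stallions in the rest of T1, so that sex and this difference overlap within T1. In the read statistics that the study gives under the same T1 numbers, these libraries had lower uniquely mapped shares than the rest of T1. Each T1 library there also had a lower share than each T3 library. The part of these shares in the results was not tested. Changes are therefore given for all 20 libraries and again without these 5.

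**Figure D1:**
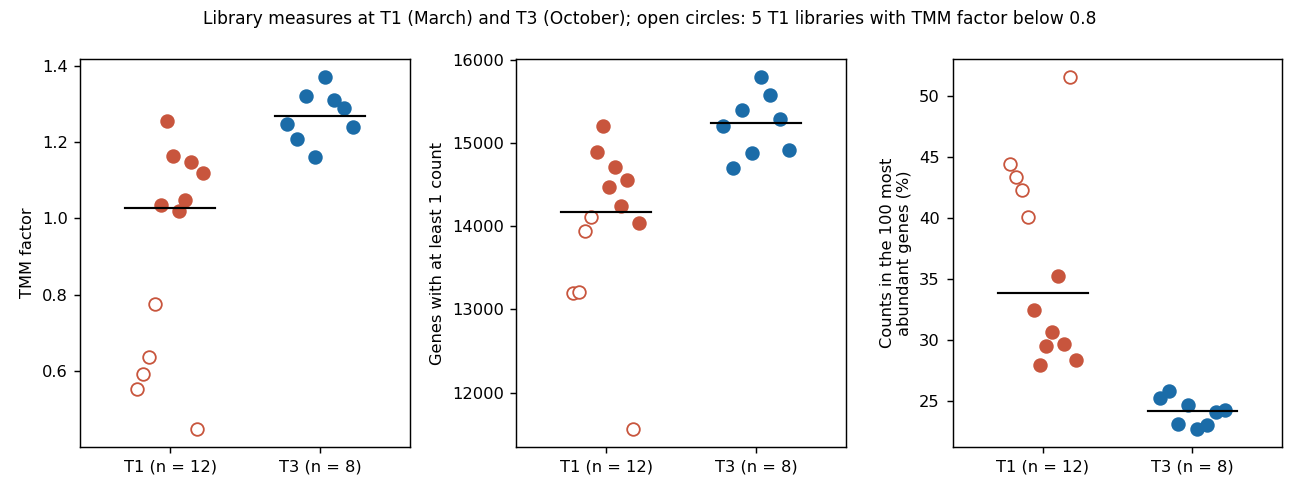
TMM factor, number of genes with at least 1 count and percentage of counts in the 100 most abundant genes, for each T1 and T3 library (points) with the median (bar). The 5 open circles are the T1 libraries with a TMM factor below 0.8, which lie from 0.448 to 0.775 where T3 lies from 1.16 to 1.37.

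The T3 libraries as a group also had more genes with a count and a smaller share of counts in the 10 most abundant genes. Genes with 1 or more counts numbered 14012 ± 981 (SD, n = 12) in T1 and 15217 ± 374 (SD, n = 8) in T3, a difference of 1205 (adjusted p = 0.00061, exact permutation test, two-sided, over 4 library measures). The 10 most abundant genes held 9.06 ± 1.42% of the counts in T1 (SD, n = 12) and 6.93 ± 0.397% in T3 (SD, n = 8; adjusted p = 6.4e-05, exact permutation test). Both differences were smaller without the 5 libraries, 629 genes (adjusted p = 0.012, exact permutation test) and -1.23 percentage points (adjusted p = 0.0012, exact permutation test). The total count per library was 3810631 to 14694001 in T1 and 10505578 to 14932603 in T3 (adjusted p = 0.011, exact permutation test), and 1 CPM at the median total of 10830636 rests on about 11 reads. The number of genes with a count depends on the total, and it was not compared at equal totals.

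Expression differed between T1 and T3 in most genes that were measured. Of 11471 genes tested, 7452 were differentially expressed (65%; edgeR quasi-likelihood F-test, Benjamini-Hochberg adjusted p under 0.05, fold change 1.3 or more), of which 3777 (32.9% of those tested) were higher in T3 and 3675 (32%) were lower. With a fold change of at least 2 there were 2219 genes higher (19.3%) and 2009 lower (17.5%), a pair of counts that moved to 1439 and 521 without the 5 libraries, to 3515 and 651 with library totals in place of TMM factors and to 1037 and 178 with the log2 TMM factor as a covariate. The share of higher genes among the 7452 was 50.7% (95% Clopper-Pearson interval from 49.5 to 51.8%). That interval takes genes as independent and does not measure the spread between libraries. The share also depended on the scaling. With library totals in place of TMM factors the median log2 fold change of all genes moved from 0.043 to 0.50, and 4874 genes were higher and 1803 lower (73.0% higher).

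Without the 5 T1 libraries 6373 of 11591 genes tested were differentially expressed (55%), 3251 higher (28%) and 3122 lower (26.9%). Of these, 5992 had also been called with all 20 libraries, 94.0% of the smaller and 80.4% of the larger set, and all 5992 had the same direction in both. The sizes of the changes were less alike. The 2219 genes at least 2-fold higher in T3 had a median log2 fold change of 1.43 with all libraries and 1.14 without the 5, and 61.3% of them were still called at least 2-fold higher. For the 2009 genes at least 2-fold lower the median went from -1.49 to -0.83, 24.8% were still called at least 2-fold lower, and 15 changed sign. Both sets were picked in the fit that held the 5 libraries. Some loss of size without them therefore comes from the choice of genes. In the fit without the 5 libraries, 1439 genes were at least 2-fold higher and 521 at least 2-fold lower. Of the sets picked with all 20 libraries, the falls lost more of their size than the rises. The cause was not tested.

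**Figure D2:**
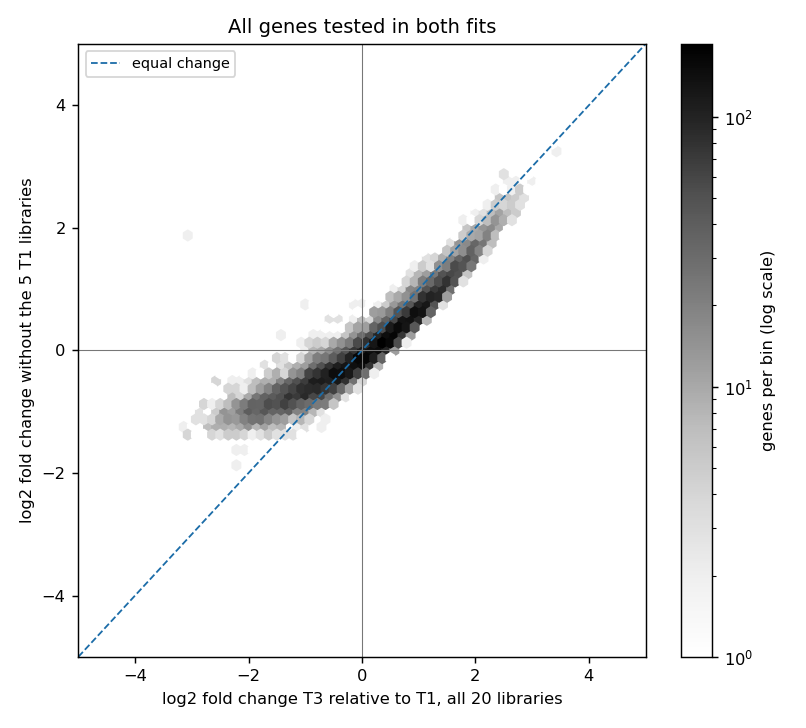
Log2 fold change of T3 relative to T1 with all 20 libraries (horizontal axis) and without the 5 T1 libraries with low TMM factors (vertical axis), with darker bins for more genes and the dashed line at equal change. Large changes lie nearer 0 on the vertical axis in both directions, falls more so than rises. For genes picked as at least 2-fold changed with all 20 libraries, the median goes from -1.49 to -0.83 in falls and from 1.43 to 1.14 in rises.

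A stricter description is the number of genes for which the 2 periods did not overlap. Each T3 library was above each T1 library in 1391 of the 11471 genes (12.1%), and each was below in 1153 (10.1%). With the 5 libraries left out these numbers were 1546 (13.5%) and 1313 (11.4%). The spread within periods was wider in T1 than in T3: the median SD of log2 CPM over genes was 0.653 in T1, 0.305 in its other 7 libraries and 0.268 in T3.

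Rises and falls were not evenly placed over the range of expression. In the lowest of 3 equal tiers by mean log2 CPM, 1400 of 3824 were higher in T3 and 798 lower, and in the middle tier 1394 and 1223 of 3823. In the highest tier the order turned, with 983 higher and 1654 lower of 3824. Without the 5 libraries the numbers were 1241 and 650, 1175 and 1114, and 787 and 1352 in the same order. The tiers were formed on mean log2 CPM over all 37 libraries, which is not divided by gene length. The T1 and T3 libraries compared are among the 37, so the tier and the direction of a gene rest in part on the same values. With library totals alone the highest tier had 1439 genes higher and 860 lower, so its order did not turn, and the lower genes still went up from 350 in the lowest tier to 593 and 860. Of the 5 genes with most counts over the same 20 libraries, 4 were lower in T3, with log2 fold changes between -2.92 and -0.45. Beside this, 43.3% of the highest tier and 32% of all genes tested were lower. The ranking uses the values that are compared, so the count is a description only. The largest of the 4 falls, in ENSECAG00000008542, went from -2.92 to -1.28 without the 5 T1 libraries. The fifth gene, ENSECAG00000027689, was not differentially expressed (log2 fold change -0.23, edgeR adjusted p = 0.36). It was called lower without the 5 T1 libraries (-0.49, edgeR adjusted p = 0.014). The smallest of the 4 falls, in ENSECAG00000000685 (edgeR adjusted p = 0.036), was called in 12 of 20 fits with 1 library left out, and not without T1 replicate 5, 8 or 9 or T3 replicate 3, 4, 5, 6 or 7, with log2 fold changes from -0.53 to -0.42.

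**Figure D3:**
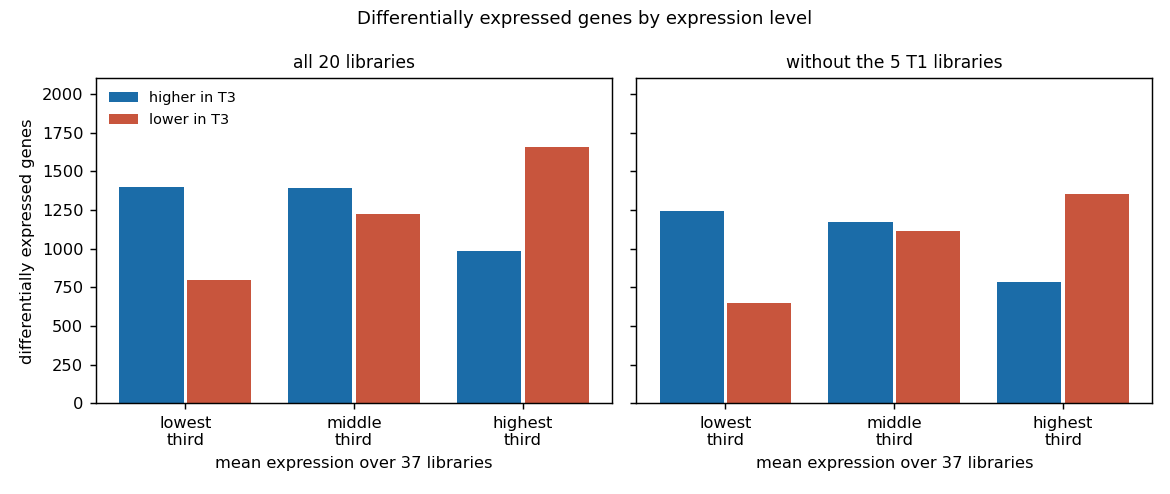
Number of genes differentially expressed between T1 and T3 by tier of mean expression, with all 20 libraries (left) and without the 5 T1 libraries (right). Bars for genes higher in T3 are taller in the lowest tier (1400 against 798), and bars for genes lower in T3 in the highest tier (1654 against 983), in both panels, an order that library totals alone turn in the highest tier (1439 higher, 860 lower).

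The largest changes were mostly in genes for which no name was at hand. Of the called genes that averaged 50 counts or more, ENSECAG00000002739 rose most: it ranged from 0 to 6.07 CPM around a median of 2.97 in T1 and from 7.86 to 83.5 CPM around a median of 48.2 in T3 (log2 fold change 3.85, standard error 0.45, edgeR adjusted p = 1.0e-06, and 3.76 without the 5). ENSECAG00000000134 followed, with 0 to 3.07 CPM in T1, with a median of 1.7, and 7.71 to 24.9 CPM in T3, with a median of 19.9 (log2 fold change 3.45, standard error 0.29, edgeR adjusted p = 1.1e-07, and 3.21 without the 5). Neither overlapped between the periods, and both kept most of their size without the 5 libraries. All 10 of the largest rises had log2 fold changes from 2.88 to 3.85, and from 2.70 to 3.76 without the 5 libraries. All 10 had separate ranges in T1 and T3, beside 12.1% of all genes tested with T3 above T1. They were picked for their change in the same libraries, so separate ranges are in part a result of that choice.

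The 10 largest falls, picked in the same way, changed more without the 5 libraries. Their log2 fold changes from -3.73 to -3.07 became -1.80 to 1.21. ENSECAG00000017292 had 328 to 1082 CPM in the 5 libraries, 39.5 to 91.0 CPM in the other 7 of T1 and 17.2 to 34.6 CPM in T3. It was lower in T3 either way (log2 fold change -3.73, standard error 0.68, edgeR adjusted p = 8.5e-05), and without the 5 by less, -1.46 (standard error 0.18, edgeR adjusted p = 5.7e-06). ENSECAG00000017437 had 5.12 to 926 CPM in the 5 libraries but 1.17 to 7.85 CPM in the other 7 and 1.40 to 42.7 CPM in T3. Its fall (log2 fold change -3.37, standard error 1.31, edgeR adjusted p = 0.028) was not called without T1 replicate 3 (-0.50) and turned into a difference of 1.21 in the other direction without the 5 (edgeR adjusted p = 0.12). Of the 10, 8 were differentially expressed in both fits.

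The genes named by the study were grouped by what they do. Of the 74, all of which passed the filter on low counts, 40 were higher in T3, 26 were lower and 8 were not differentially expressed, beside 32.9% and 32% of all genes tested. Without the 5 libraries 41 were higher and 20 lower. Each T3 library was above each T1 library in 25 of them and below in 7, beside 12.1% and 10.1% of all genes tested. Their median log2 fold change was 0.92, against 0.043 over all genes tested. The study picked these genes on the same libraries, in other comparisons that include T1 and T3, so the numbers describe them and are not independent evidence of a direction.

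Of the 9 genes that the study names and that were grouped here as chromatin and transcription coregulators, 8 rose and 1 fell, beside 32.9% higher and 32% lower among all genes tested. The calls were the same without the 5 libraries, and the median log2 fold change was 1.84. KMT2C, which methylates histone H3 at enhancers, ranged from 10.99 to 34.1 CPM around a median of 23.2 in T1 and from 52.3 to 171 CPM around a median of 132 in T3 (log2 fold change 2.38, standard error 0.24, edgeR adjusted p = 2.3e-07, and 2.52 without the 5). PRR14L lay between 2.22 and 8.06 CPM in T1, with a median of 4.95, and between 11.6 and 44.6 CPM in T3, with a median of 29.5 (log2 fold change 2.63, standard error 0.27, edgeR adjusted p = 2.6e-07, and 2.64 without the 5). In both genes the T3 range lay wholly above that of T1, and the change was no smaller without the 5 libraries. NCOA2, a coactivator of nuclear receptors, ranged from 14.1 to 41.8 CPM around a median of 29.9 in T1 and from 74.5 to 165 CPM around a median of 131 in T3 (log2 fold change 2.11, standard error 0.21, edgeR adjusted p = 2.3e-07, and 1.96 without the 5). SRCAP, the ATPase that places the histone variant H2A.Z, went from a median of 41.0 CPM to one of 166 CPM (log2 fold change 1.84, and 1.69 without the 5), again without overlap of the periods.

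A further 3 genes of this group had separate ranges, as 12.1% of all genes tested had with T3 above T1. MBTD1, a reader of methylated histone H4, had 2.02 to 9.22 CPM in T1, with a median of 5.78, and 12.8 to 28.9 CPM in T3, with a median of 23.1 (log2 fold change 1.95, standard error 0.25, edgeR adjusted p = 3.5e-06, and 1.61 without the 5). TAF1, the largest subunit of the general factor TFIID, lay between 3.84 and 39.4 CPM in T1, with a median of 23.8, and between 52.6 and 102 CPM in T3, with a median of 79.1 (log2 fold change 1.700, standard error 0.26, edgeR adjusted p = 1.6e-05, and 1.299 without the 5). TBL1X, part of the NCoR and SMRT corepressor complexes, had a log2 fold change of 1.48, and of 1.23 without the 5. For TAF1 the lowest values of T1 belonged to the 5 libraries (3.84 to 16.7 CPM), and the other 7 lay between 22.8 and 39.4 CPM. LOC100062658, related to Polycomb RING finger proteins, rose by less (log2 fold change 1.12, and 0.95 without the 5), with T1 up to 19.0 CPM and T3 from 18.3 CPM. ANP32A, a histone-binding inhibitor of histone acetylation, was the gene that fell: it had 477 to 1052 CPM in the 5 libraries, 215 to 364 CPM in the other 7 and 110 to 208 CPM in T3, with log2 fold changes of -1.68 (standard error 0.32, edgeR adjusted p = 0.00015) with and -0.88 without the 5. Reads of ANP32A may be shared with near-identical copies.

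**Figure D4:**
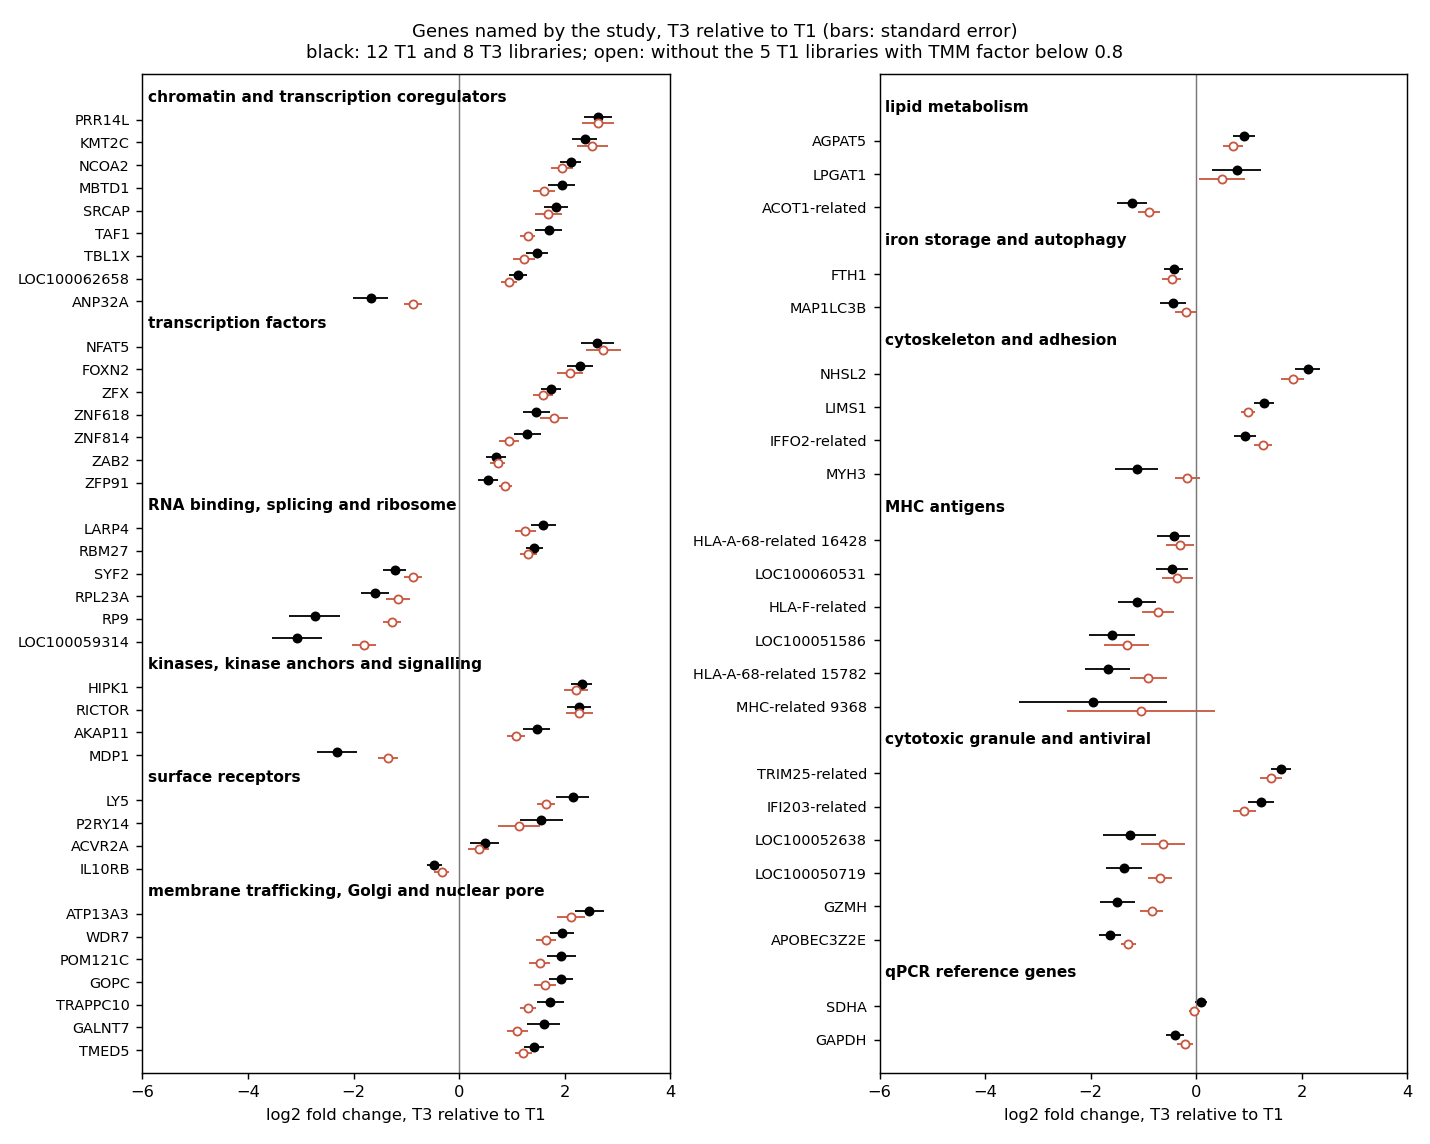
Log2 fold change of T3 relative to T1 (points) with standard error (bars) for the genes that the study names in 12 groups (the 14 remaining genes are not drawn), with all 20 libraries (black) and without the 5 T1 libraries (open). Chromatin and coregulator genes other than ANP32A, transcription factors and trafficking genes lie to the right of 0, and MHC and most granule genes to the left.

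All 7 transcription factors rose, in both fits (medians of 1.46 and 1.58), beside 32.9% and 28% of all genes tested. NFAT5, which turns on osmoprotective genes when tonicity rises and also acts in immune cells, ranged from 1.54 to 8.18 CPM around a median of 4.001 in T1 and from 8.05 to 50.3 CPM around a median of 24.4 in T3 (log2 fold change 2.62, standard error 0.31, edgeR adjusted p = 1.1e-06, and 2.74 without the 5). The lowest T3 library was just below the highest of T1, which was one of the 5, and without these the periods were separate. FOXN2, a forkhead factor, had 2.91 to 11.6 CPM in T1, with a median of 5.86, and 14.6 to 43.03 CPM in T3, with a median of 33.2 (log2 fold change 2.29, standard error 0.25, edgeR adjusted p = 5.8e-07, and 2.11 without the 5). ZFX, a zinc finger activator encoded on the X chromosome, lay between 6.24 and 21.8 CPM in T1, with a median of 13.5, and between 24.7 and 58.2 CPM in T3, with a median of 40.8 (log2 fold change 1.74, standard error 0.19, edgeR adjusted p = 4.8e-07, and 1.58 without the 5). FOXN2 and ZFX had no overlap between T1 and T3.

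Zinc finger genes made up the rest of the group. ZNF618 and ZNF814 had log2 fold changes of 1.46 and 1.296, and of 1.802 and 0.95 without the 5. ZFP91, a zinc finger protein with ubiquitin ligase activity, had 19.5 to 35.4 CPM in the 5 libraries, 11.8 to 16.7 CPM in the other 7 and 20.2 to 31.95 CPM in T3, so that its log2 fold change grew from 0.55 (standard error 0.18, edgeR adjusted p = 0.012) to 0.88 (standard error 0.13, edgeR adjusted p = 1.8e-05) when the 5 were left out. The gene that the study spells both ZAB2 and ZEB2, an E-box binding repressor under the latter name, had log2 fold changes of 0.70 with and 0.73 without the 5. For ZFP91 and this gene the other 7 libraries of T1 did not overlap with T3.

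RNA-binding genes went in both directions. LARP4, which binds poly(A) tails and stabilizes messages, ranged from 3.32 to 12.2 CPM around a median of 7.11 in T1 and from 12.1 to 31.7 CPM around a median of 20.5 in T3 (log2 fold change 1.59, standard error 0.23, edgeR adjusted p = 1.2e-05, and 1.26 without the 5). RBM27 lay between 8.32 and 17.7 CPM in T1, with a median of 13.8, and between 24.7 and 50.1 CPM in T3, with a median of 39.3, without overlap (log2 fold change 1.43, and 1.31 without the 5). The members that fell have other roles: SYF2 is a spliceosome factor, RP9 a splicing-related protein, RPL23A a protein of the large ribosomal subunit, and LOC100059314 belongs to a ribosomal protein class. RPL23A ranged from 204 to 969 CPM around a median of 565 in T1 and from 115 to 244 CPM around a median of 175 in T3 (log2 fold change -1.58, standard error 0.26, edgeR adjusted p = 4.2e-05, and -1.15 without the 5). The highest values of RPL23A were in the 5 libraries (581 to 969 CPM), the other 7 spread from 204 to 623 CPM, and the fall was called either way.

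RP9 and LOC100059314 had the largest falls of this group. RP9 had 373 to 911 CPM in the 5 libraries, 91.6 to 162 CPM in the other 7 and 39.2 to 76.5 CPM in T3, so T3 was below both sets (log2 fold change -2.74 with the 5 and -1.27 without). LOC100059314 had 23.1 to 41.6 CPM, 3.74 to 9.86 CPM and 1.03 to 2.59 CPM in the same order (log2 fold change -3.07 and -1.80). SYF2 was likewise below T1 in each T3 library (log2 fold change -1.22 and -0.87). Ribosomal protein genes have many near-identical copies, and the authors' counting may have divided reads of RPL23A and LOC100059314 among them.

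Of the 4 kinase and signalling genes 3 rose and 1 fell, in both fits. Among all genes tested with all 20 libraries 32.9% were higher and 32% lower. RICTOR, the subunit that defines mTOR complex 2, ranged from 3.98 to 11.2 CPM around a median of 7.07 in T1 and from 16.97 to 54.7 CPM around a median of 35.5 in T3 (log2 fold change 2.28, standard error 0.23, edgeR adjusted p = 2.7e-07, and 2.28 without the 5). HIPK1, a nuclear kinase that acts on homeodomain factors and p53, had 11.98 to 23.7 CPM in T1, with a median of 18.1, and 44.4 to 131 CPM in T3, with a median of 94.7 (log2 fold change 2.32, standard error 0.20, edgeR adjusted p = 1.3e-07, and 2.22 without the 5). Both were separate between the periods and hardly moved without the 5 libraries. AKAP11, an anchor of protein kinase A, had a log2 fold change of 1.48, and of 1.08 without the 5, with a T3 range that began at 24.0 CPM where T1 ended at 24.6 CPM. MDP1, a magnesium-dependent phosphatase, was the gene that fell, from 150 to 455 CPM in the 5 libraries and 51.2 to 111 CPM in the other 7 to between 18.9 and 47.8 CPM in T3 (log2 fold change -2.32, standard error 0.39, edgeR adjusted p = 4.2e-05, and -1.35 without the 5).

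**Figure D5:**
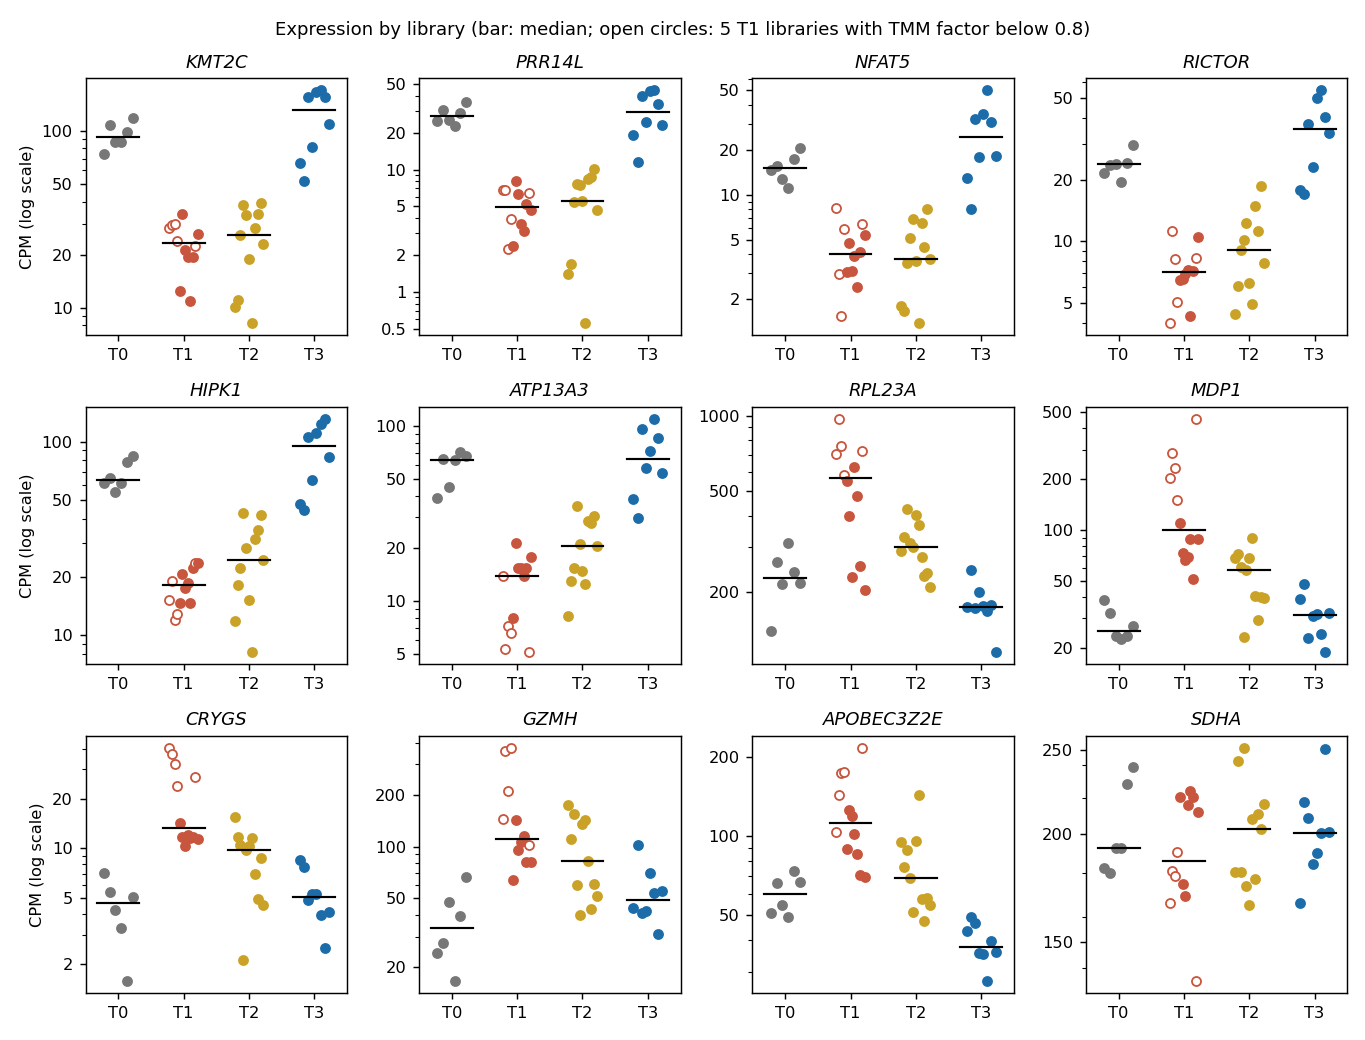
CPM on a log axis for 12 named genes in each of the 37 libraries by period (points; bar, median; open circles, the 5 T1 libraries with low TMM factors). KMT2C, PRR14L, RICTOR, HIPK1 and ATP13A3 have all T3 points above all T1 points, MDP1, CRYGS and APOBEC3Z2E all below, and SDHA has T1 from 135 to 224 and T3 from 166 to 251.

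Among the 4 surface receptor genes the calls were mixed. The gene that the study lists as LY5, in the lymphocyte antigen 75 family, ranged from 6.397 to 48.3 CPM around a median of 28.99 in T1 and from 68.7 to 151 CPM around a median of 129 in T3 (log2 fold change 2.16, standard error 0.31, edgeR adjusted p = 1.1e-05, and 1.65 without the 5). P2RY14, a receptor for UDP-glucose and related sugars, lay between 1.101 and 17.4 CPM in T1, with a median of 7.33, and between 7.16 and 47.3 CPM in T3, with a median of 15.9 (log2 fold change 1.56, standard error 0.41, edgeR adjusted p = 0.0022, and 1.14 without the 5), with overlapping ranges. IL10RB, a shared chain of the receptors for interleukin 10 and related cytokines, was lower in T3 (log2 fold change -0.47, standard error 0.15, edgeR adjusted p = 0.0079), but not without the 5 libraries (-0.33, edgeR adjusted p = 0.051), and its sign turned to 0.080 with library totals alone. ACVR2A, an activin receptor, had medians of 3.37 CPM in T1 and 4.82 CPM in T3 and was not called (log2 fold change 0.48, standard error 0.27, edgeR adjusted p = 0.11, and 0.37 without the 5). With 1 library left out it was called only without T1 replicate 11 (0.595), and it was called as well with the first surrogate variable as a term (0.595) and with library totals alone (0.965).

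Genes of the Golgi, of vesicle traffic and of the nuclear pore were higher in T3, 7 of 7 in both fits, beside 32.9% and 28% of all genes tested. The median log2 fold change was 1.94. In 6 of the 7 T1 and T3 did not overlap, beside 12.1% of all genes tested with T3 above T1. ATP13A3, a P-type ATPase that carries polyamines, ranged from 5.12 to 21.5 CPM around a median of 13.9 in T1 and from 29.6 to 109 CPM around a median of 64.8 in T3 (log2 fold change 2.47, standard error 0.28, edgeR adjusted p = 7.6e-07, and 2.13 without the 5). WDR7, a partner of the vacuolar proton pump, had 1.88 to 7.78 CPM in T1, with a median of 5.57, and 12.99 to 30.1 CPM in T3, with a median of 20.8 (log2 fold change 1.95, standard error 0.23, edgeR adjusted p = 1.4e-06, and 1.65 without the 5). GOPC, a Golgi PDZ protein, and TRAPPC10, a subunit of the TRAPP tethering complexes, had log2 fold changes of 1.94 and 1.73, and of 1.63 and 1.31 without the 5. POM121C, a nuclear pore membrane protein with close copies in mammalian genomes, and TMED5, a p24 cargo receptor, had 1.94 and 1.42, and 1.53 and 1.22 without the 5.

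GALNT7, which starts or extends mucin-type O-glycans, was the trafficking gene with overlap. It had 3.08 to 6.42 CPM in the 5 libraries, 13.9 to 29.7 CPM in the other 7 and 20.4 to 51.0 CPM in T3 (log2 fold change 1.601, standard error 0.32, edgeR adjusted p = 0.00021). Without the 5 libraries its log2 fold change was 1.10, and over the 7 genes the values then ran from 1.10 to 2.13.

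Lipid and iron genes showed smaller or less certain differences. AGPAT5, which acylates lysophosphatidic acid, had 1.65 to 4.52 CPM in T1, with a median of 3.17, and 3.65 to 7.72 CPM in T3, with a median of 5.61 (log2 fold change 0.91, standard error 0.21, edgeR adjusted p = 0.00067, and 0.699 without the 5). LPGAT1, an acyltransferase of lysophospholipids, had medians of 16.2 CPM in T1 and 61.0 CPM in T3, but T1 reached 90.8 CPM within the 5 libraries and 119.7 CPM outside them. It was not called (log2 fold change 0.77, standard error 0.47, edgeR adjusted p = 0.15, and 0.49 without the 5). With 1 library left out it was called only without T1 replicate 9 (1.11), and with library totals alone it was called as well (1.24). The ACOT1-related acyl-CoA thioesterase fell (log2 fold change -1.22, standard error 0.28, edgeR adjusted p = 0.00079, and -0.898 without the 5).

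FTH1, the heavy chain of ferritin that stores iron, ranged from 1169 to 2527 CPM around a median of 1528 in T1 and from 835 to 1713 CPM around a median of 1177 in T3. Its fall (log2 fold change -0.43, standard error 0.19, edgeR adjusted p = 0.045, and -0.46 without the 5) was at the edge of the threshold and its sign turned to 0.052 with library totals alone. The call was lost in 10 of 20 fits with 1 library left out, namely T1 replicates 1, 2, 5, 7, 8 and 12 and T3 replicates 3, 5, 6 and 7, with log2 fold changes from -0.44 to -0.36. FTH1 may also share reads with near-identical copies. MAP1LC3B, the LC3 protein of autophagosomes, was not called (log2 fold change -0.44, standard error 0.24, edgeR adjusted p = 0.12, and -0.201 without the 5), and its sign turned to 0.17 with library totals alone.

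Of the 4 cytoskeleton and adhesion genes 3 rose in both fits, beside 32.9% and 28% of all genes tested. NHSL2, of the Nance-Horan family of actin regulators, lay between 3.84 and 20.04 CPM in T1, with a median of 11.02, and between 31.5 and 72.6 CPM in T3, with a median of 52.1 (log2 fold change 2.11, standard error 0.23, edgeR adjusted p = 4.8e-07, and 1.83 without the 5). LIMS1, a focal adhesion adaptor that binds integrin-linked kinase, also had separate ranges (log2 fold change 1.28, and 0.98 without the 5). The IFFO2-related gene, of the intermediate filament family, had log2 fold changes of 0.93 with and 1.27 without the 5 libraries. MYH3, the embryonic myosin heavy chain, had 8.32 to 40.4 CPM in the 5 libraries, 5.18 to 10.8 CPM in the other 7 and 3.69 to 9.87 CPM in T3, and its fall was called with the 5 (log2 fold change -1.13, standard error 0.41, edgeR adjusted p = 0.020) and not without them (-0.17, edgeR adjusted p = 0.55).

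Genes of the major histocompatibility complex (MHC), which present peptides to T cells, were lower in T3 or not called. Of 6, 3 fell and 0 rose in both fits, and no range was separate. Among all genes tested 32% were lower with all 20 libraries and 26.9% without the 5. LOC100051586, of class I, ranged from 823 to 9249.8 CPM around a median of 2296 in T1 and from 376 to 2202 CPM around a median of 1049 in T3 (log2 fold change -1.599, standard error 0.43, edgeR adjusted p = 0.0028, and -1.32 without the 5). The HLA-A-68-related gene ENSECAG00000015782 lay between 547 and 5125 CPM in T1, with a median of 1656, and between 258 and 1462 CPM in T3, with a median of 576 (log2 fold change -1.68, standard error 0.42, edgeR adjusted p = 0.0015, and -0.91 without the 5). ENSECAG00000015782 was not called with the log2 TMM factor as a covariate (-0.75), in stallions only (-1.37) or with library totals without the 5 (-0.74). The HLA-F-related gene had log2 fold changes of -1.13 with and -0.72 without the 5. It was not called with library totals alone (-0.57) or without the 5 (-0.51), with the TMM covariate (-0.925), in mares only (-1.36) or in stallions only (-0.90). The log2 fold changes of the 3 genes not called were -0.43 for a second HLA-A-68-related gene, ENSECAG00000016428, -1.96 (standard error 1.40) for an MHC-related gene, ENSECAG00000009368, and -0.46 for LOC100060531, a class II DQ beta gene; with library totals alone the first and the last of these turned to 0.095 and 0.037.

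The MHC-related gene ENSECAG00000009368 showed how unevenly these reads fell on single genes. Its values ran from 11.5 to 5794 CPM in T1 and from 10.95 to 1544 CPM in T3, with medians of 38.9 CPM and 23.3 CPM. MHC class I genes are similar to each other and differ between animals, so the counting may have placed reads of one gene on another.

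Cytotoxic granule and antiviral genes were split, with 4 lower and 2 higher in T3, beside 32% lower and 32.9% higher among all genes tested. GZMH, a granzyme of natural killer cells and cytotoxic T cells, ranged from 64.1 to 375 CPM around a median of 111 in T1 and from 31.2 to 102 CPM around a median of 48.7 in T3 (log2 fold change -1.49, standard error 0.34, edgeR adjusted p = 0.00059, and -0.84 without the 5). Its values were 102 to 375 CPM in the 5 libraries and 64.1 to 142 CPM in the other 7, and the fall was called either way. LOC100052638, a second granzyme H-like gene, had medians of 85.2 CPM in T1 and 44.1 CPM in T3, with a call (log2 fold change -1.26, edgeR adjusted p = 0.031) that was lost without the 5 libraries (-0.63, edgeR adjusted p = 0.21). It was also lost without T1 replicate 2 (-1.10) or 4 (-1.003) and without T3 replicate 4 (-1.17), 5 (-1.23) or 6 (-1.19). Reads of these granzyme genes may be shared.

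APOBEC3Z2E, a cytidine deaminase that restricts retroviruses, was the member that fell with separate ranges. It had 69.3 to 218 CPM in T1, with a median of 112, and 27.8 to 48.8 CPM in T3, with a median of 37.6 (log2 fold change -1.64, standard error 0.21, edgeR adjusted p = 3.0e-06, and -1.29 without the 5). LOC100050719, similar to the interferon-induced membrane protein IFITM3, also fell (log2 fold changes -1.37 with and -0.68 without the 5). The 2 genes that rose were a TRIM25-related gene, of the family of ubiquitin ligases that act in RIG-I signalling, with 7.68 to 23.2 CPM in T1, with a median of 14.5, and 27.2 to 61.3 CPM in T3, with a median of 47.1 and T3 wholly above T1 (log2 fold change 1.61, and 1.42 without the 5), and an IFI203-related gene, of the interferon-inducible DNA sensors, with a log2 fold change of 1.23, and of 0.91 without the 5. Interferon-related members thus stood on both sides.

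Of the 14 remaining genes that the study names, 5 rose, 8 fell and 1 was not called, and without the 5 libraries 6 rose and 6 fell. Over all genes tested with all 20 libraries 32.9% rose and 32% fell. CRYGS, known as a lens crystallin, had 23.9 to 40.4 CPM in the 5 libraries, 10.3 to 14.3 CPM in the other 7 and 2.51 to 8.496 CPM in T3, so that T3 was below both sets (log2 fold change -1.91, standard error 0.32, edgeR adjusted p = 4.1e-05, and -1.18 without the 5). SYCE1, a protein of the synaptonemal complex in meiosis, had 28.1 to 35.6 CPM, 2.91 to 9.14 CPM and 1.34 to 6.06 CPM in the same order (log2 fold changes -2.69 and -1.14). ANKZF1, which acts in ribosome quality control, and GTSF1, which acts with PIWI proteins, had log2 fold changes of -1.34 and -0.81, and both were still lower without the 5 (-0.84 and -0.52), but GTSF1 was not called with library totals alone (-0.24).

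C7orf50, a less well described gene, was called lower in T3 with the 5 libraries (log2 fold change -0.91) and not without them (-0.19, edgeR adjusted p = 0.39). An ANKRD11-related gene, of a family of chromatin regulators, lay between 3.02 and 17.7 CPM in T1, with a median of 9.19, and between 18.4 and 49.5 CPM in T3, with a median of 38.2, without overlap (log2 fold change 1.82, and 2.05 without the 5). The other 7 genes of this set have no gene symbol here; 4 were higher in T3, with log2 fold changes from 1.19 to 2.32, and 2 were lower, with -2.48 and -0.60. The larger of these falls was not called without the 5 libraries (-0.86), and the gene that was not called (0.11) was higher without them (0.99).

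T2 and T0 were set beside T1 and T3 for the same genes, as levels only. By group means of log2 CPM, T2 lay between T1 and T3 in 62 of the 74 genes that the study names (83.8%), beside 74.7% of all genes tested. On the same means T0 was nearer T3 than T1 in 73 (98.6%), beside 79.4%. With the other 7 libraries as T1 the shares for T0 were 95.9% and 67.4%. These means use the T1 and T3 libraries compared above and were not tested. The examples that follow are medians of CPM and were chosen after their values were seen. For RPL23A the medians were 565 CPM in T1, 302 CPM in T2, 175 CPM in T3 and 228 CPM in T0, and for MDP1 99.8, 58.1, 31.5 and 25.3 CPM in the same order. In both the May median lay between March and October. For KMT2C the order of medians was 23.2, 25.95, 132 and 92.8 CPM, for PRR14L 4.95, 5.55, 29.5 and 27.4 CPM, and for NFAT5 4.001, 3.72, 24.4 and 15.2 CPM. In these 3 genes the T2 median was near that of T1, and the untrained horses, sampled in October like T3, had medians nearer those of T3 than those of T1. For NHSL2 the medians were 11.02, 19.6, 52.1 and 22.6 CPM, so that T0 was nearer T2, and for the IFI203-related gene 16.5, 30.1, 43.5 and 60.98 CPM, with T0 highest.

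Mares and stallions were also fitted separately. Mares alone (5 of T1, 4 of T3) gave 6897 differentially expressed genes, 3694 higher and 3203 lower, and stallions alone (7 and 4) gave 4931, 2552 higher and 2379 lower. The difference between the sexes itself was tested by an interaction term over the 20 libraries: 0 of 11471 genes passed at an adjusted p below 0.05 in edgeR, with 2074 (18.1%) at an unadjusted p below 0.05, and 9 passed in DESeq2. Of the 5 T1 mares, 4 were among the libraries with low TMM factors, against 1 of the 7 stallions, and without these libraries 0 of 11591 genes passed in edgeR, with 1090 (9.40%) at an unadjusted p below 0.05. The part of sex in the other results was not tested beyond this.

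The study normalized its qPCR to SDHA and GAPDH. SDHA, a subunit of succinate dehydrogenase, had 135 to 191 CPM in the 5 libraries, 169 to 224 CPM in the other 7 and 166 to 251 CPM in T3. It was not differentially expressed (log2 fold change 0.10, standard error 0.12, edgeR adjusted p = 0.47), and its sign turned without the 5 (-0.033). GAPDH, a glycolytic enzyme, ranged from 1068 to 2425 CPM around a median of 1682 in T1 and from 901 to 1883 CPM around a median of 1181 in T3. Its fall (log2 fold change -0.41, standard error 0.17, edgeR adjusted p = 0.042) was not called without the 5 (-0.21, edgeR adjusted p = 0.22), and turned to 0.15 with library totals alone. It was lost in 11 of 20 fits with 1 library left out, T1 replicates 1, 2, 3, 4 and 8 and T3 replicates 1, 2, 3, 5, 6 and 8, with log2 fold changes from -0.40 to -0.35.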

How the data were processed

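RNA of jugular blood was sequenced by the authors from 37 samples. Per the methods of the study, they trimmed the reads with Flexbar, aligned them with STAR to EquCab2 with Ensembl gene models, and RSEM then gave an expected count for each gene. The deposited table holds these counts as whole numbers, not normalized, for 26991 genes. The authors' smaller tables, 1 per comparison of theirs, were not used. The labels give no sequencing pool, and pools were not used as a term. If the T1 numbers of the study's read statistics are those of the library titles, all but 1 of the 5 T1 libraries with low TMM factors shared a pool that held no other T1 library, so that pool and this difference overlap within T1. That pool also held T2 and T3 libraries, and the TMM factors of T3 were all 1.16 or more. The remaining library of the 5 was in a pool with a T1 library that is not among them. The part of the pool was not tested.

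Periods were taken from the library titles. The analysis used edgeR 4.0.16 (R 4.3.3): 11471 genes passed filterByExpr among 19854 with a count in the 20 libraries, TMM factors were applied, and T3 was compared with T1 by the quasi-likelihood F-test with Benjamini-Hochberg adjustment over all genes tested. The standard error was taken as the absolute log2 fold change over the root of F. CPM per library use TMM factors computed over all 37 libraries. The fitting steps were tested on simulated data. Library measures were compared by exact permutation tests with SciPy 1.17.1. No library was a duplicate of another: over 190 pairs, chi-square per degree of freedom was at least 14.5. Counts cover reads without molecular identifiers. The interval of the share of higher genes takes genes as independent and does not cover the spread between libraries.

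Genes named are all 74 identifiers that the study pairs with a name, with SDHA and GAPDH among them, the 10 largest rises and falls among called genes with a mean of 50 counts or more (summarised, with 2 of each named), and the 5 genes with most counts. The comparison, the gene lists and the tests were chosen with earlier results of these data known. The 5 T1 libraries with TMM factors below 0.8 were left out in a second fit. Alternatives were DESeq2 1.42.0, RLE and upper-quartile factors, library totals alone, 2 other filters, all 37 libraries in one fit, sex, a replicate block, the log2 TMM factor or the first surrogate variable (sva 3.50.0) as terms, thinned libraries, the most abundant genes left out, other fold thresholds, each sex alone and each library left out; DESeq2, RLE factors and library totals without the 5 libraries, and the interaction without them, were added after seeing the data. Sequences, gene positions and cell type markers were not analysed here. The values of 1 named gene are not reported here.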

Additional observations from a re-analysis of the deposited data

Results flagged for a closer look

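In T3, 82 sets of 8 values (78 genes and 4 library measures) were examined for a single library far from the rest, and 4 genes had one by Dixon's criterion for a gap relative to the range. Chance alone flags about 1 in 20 such sets. T3 replicate 2 was the highest library in 3 of the 4: GTSF1 had 17.2 CPM there, with 11.2 CPM in the next library and 5.86 CPM in the lowest, SYCE1 had 6.06 CPM, with 3.30 CPM next and 1.34 CPM lowest, and ENSECAG00000014226 had 1067.5 CPM, with 359.6 CPM next and 102.0 CPM lowest. T3 replicate 4 had 42.7 CPM of ENSECAG00000017437, with 8.07 CPM in the next library and 1.40 CPM in the lowest. The 12 libraries of T1 were not examined in this way, since the criterion was kept to sets of up to 10. The cause of these values was not tested.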

How the results depend on the processing

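The number of differentially expressed genes (7452) stayed within 1.5 times of that value in each setting except 3: it was 4804 with the log2 TMM factor as a covariate (2344 higher in T3, 48.8%), 4228 with a fold change of at least 2 (2219 higher and 2009 lower, 52.5% higher) and 4931 in stallions only (2379 lower). Library totals alone gave 1803 lower genes and 73.0% higher, and, without the 5 T1 libraries with low TMM factors, 1911 and 68.5%. The percentage higher was 52.4% with upper-quartile factors, 52.7% with no filter on low counts, 52.1% with sex as a term and 53.6% in mares only. With each library left out in turn there were 7105 to 7652 differentially expressed genes, 3585 to 3917 higher and 3520 to 3735 lower, with 49.9 to 51.2% higher. DESeq2 called 7708 genes, of which 7411 were shared with edgeR, all in the same direction, and it called 9 genes for the sex by period interaction where edgeR called 0. Without the 5 libraries the difference in total count was 2138200 and no longer passed (adjusted p = 0.078, exact permutation test).

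Libraries with the same number in T1 and T3 were not shown to be paired. The correlation of their deviations from the period means lay between -0.299 and 0.408 over 8 numbers, 4 of 8 libraries correlated best with their own number, and 5 of 8 shared the sex. A replicate block over libraries 1 to 8 gave 7631 differentially expressed genes, 3988 higher and 3643 lower (52.3% higher). The block called 5 named genes that were not among the 7452, ACVR2A (0.895), LPGAT1 (1.602) and the MHC genes ENSECAG00000016428 (-0.707), ENSECAG00000009368 (-2.381) and LOC100060531 (-0.814), so that all 6 MHC genes were lower under it. ACVR2A and LPGAT1 were also called with library totals alone. The block lost the calls of ZFP91 (0.513) and ENSECAG00000017437 (-1.205).

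Of 78 named genes 70 were called. Of these the call was lost in 17 in stallions only, 15 with the TMM covariate, 11 with library totals alone (13 with the 5 libraries left out as well), 11 at a fold change of at least 2, 7 without the 5 libraries (also with DESeq2 or RLE factors), 6 in mares only, 6 with glmTreat, 2 or fewer in each other setting, with 0 under DESeq2 or RLE factors over all 20 libraries, and 3 or fewer with 1 library left out. The direction turned in these cases. With library totals alone IL10RB had a log2 fold change of 0.080, FTH1 0.052, MAP1LC3B 0.17, ENSECAG00000016428 (HLA-A-68-related) 0.095, LOC100060531 0.037 and GAPDH 0.15, and with the 5 libraries left out as well, MAP1LC3B had 0.002, MYH3 0.028, C7orf50 0.017 and ENSECAG00000017437 1.401. With the TMM covariate MAP1LC3B had 0.062, SDHA -0.074 and ENSECAG00000017437 1.97. Without the 5 libraries SDHA had -0.033 (-0.025 with DESeq2, -0.029 with RLE factors) and ENSECAG00000017437 1.215 (1.223 with RLE factors). ENSECAG00000014186 had -0.34 in mares only and -0.035 without T3 replicate 7, the lowest of its values from -0.035 to 0.306 with 1 library left out. The cause was not tested.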
